A study of Mus musculus with 4 samples.

Results

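Serpins are the serine protease inhibitor family, and they were read here through every array probe whose transcript accession belongs to a gene with a RefSeq symbol of Serpin followed by a clade letter from a to i and a number. The 68 such mouse genes and pseudogenes of RefSeq described here include 53 with at least 1 probe, with 67 probes in all among the 41103 probes kept. The cells were mouse embryonic fibroblasts (MEF) of p53 null genotype, infected with retroviruses and, per the labels, read 5 days later. A number in the names of the deposited tables is not the same for replicates 1 and 2, and no label explains it. One group received OSK, the reprogramming factors Oct4, Sox2 and Klf4, and is labelled embryonic fibroblast. The other received OSK+Glis1, which adds the zinc finger factor Glis1, and is labelled iPSC from embryonic fibroblast. Each group had 2 arrays, numbered 1 and 2 in the labels, and both groups share the p53 null genotype, the OSK factors and the retroviral infection, so no uninfected or p53 wild-type sample entered the comparison. Separate cultures or embryos are not named for the arrays of a group, so a p-value reflects how far these arrays differ, and that spread may be technical.

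A serpin carries an exposed loop that a protease cuts as it would a substrate. The cut serpin then snaps into a more stable fold and drags the protease along, distorted and trapped in a covalent complex. Most clades are secreted, including antitrypsin and antichymotrypsin relatives (clade A), antithrombin (C), protease nexin (E), pigment epithelium-derived factor and antiplasmin (F) and C1 inhibitor (G), while most of clade B stays inside the cell and clade H is a collagen chaperone of the endoplasmic reticulum rather than an inhibitor. In mice, clades A and B have expanded into clusters of close paralogs that lie side by side on a chromosome.

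Signal was single-colour Cy3 intensity, and a level below is log2 of the processed intensity minus the same array's 75th percentile, so 0 is the 75th percentile of that array. Between 59.9% and 65.2% of the non-control spots were well above background on an array, and none was saturated. The levels of all genes tested correlated at 0.987 within OSK, 0.989 within OSK+Glis1 and 0.935 to 0.945 between the groups. Precision is limited by the number of arrays. The Glis1 probe read -3.26 and -3.34 in OSK and -3.28 and -3.73 in OSK+Glis1, so adding the factor was not seen as a higher signal (limma adjusted p = 0.598). No source used here says which transcripts that probe can detect, the retroviral one included. The Trp53 probe was well above background on all 4 arrays, and its position relative to the deleted part of the gene is not given either. All 10 fibroblast markers were well above background on both OSK arrays and on the first OSK+Glis1 array, and 9 of 10 on the second. Of the pluripotency genes looked at, Pou5f1 read -4.52 and -5.72 in OSK against -2.19 and -1.08 in OSK+Glis1 (limma adjusted p = 0.0194). The Pou5f1 probe may also detect the transgene, which both groups received. Esrrb read -7.93 and -7.37 against -3.36 and -1.30 (limma adjusted p = 0.0120), whereas Zfp42 and Dppa5a, at log2 differences of -1.68 and -1.06, and Sox2 and Klf4, at 1.12 and 0.14, missed the threshold. The Pou5f1 and Esrrb calls were lost when either OSK array was left out.

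Of the 53 serpin genes with a probe, 21 were tested, meaning that a probe was well above background on the 2 arrays of OSK, of OSK+Glis1 or of both. At a limma adjusted p under 0.05 over all 19171 genes tested, 1 rose with Glis1 (Serpina3f), 4 fell (Serpina3n, Serpinb2, Serpinb5 and Serping1) and 16 did not pass. Those 5 that passed make 23.8% of the serpins tested, beside 14.2% of all genes tested, of which 6.05% were higher and 8.17% lower. Serpina3f, Serpinb2 and Serpinb5 passed the background filter only through the group where they are high, so their share does not describe the family as a whole. Among the 15 serpins well above background on all 4 arrays, 2 passed (Serpina3n and Serping1), or 13.3% beside 13% of all genes under the same filter. The median serpin difference was -0.31 on the log2 scale, beside 0.055 for all genes, the same with the 3 genes dim in 1 group at the bound of their change, and 17 of 21 differences were negative. Centring each array on its median raised the median of all genes to 0.20, left 13 of 21 serpin differences negative, and kept the same 5 calls. It also moved the share of all calls that were higher from 42.6% to 53.6%. A background correction by normexp on the raw spot and local background signals left no gene past the threshold, serpins included, with 1411 genes and 4 serpins at an unadjusted p under 0.05 against 5605 (29.2% of genes) and 9. The count of calls depends on single arrays: without the first OSK array 2 serpins passed (Serpina3n and Serping1), and without the second 4 passed (Serpina3n, Serpinb3c, Serpinb5 and Serping1).

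**Figure D1:**
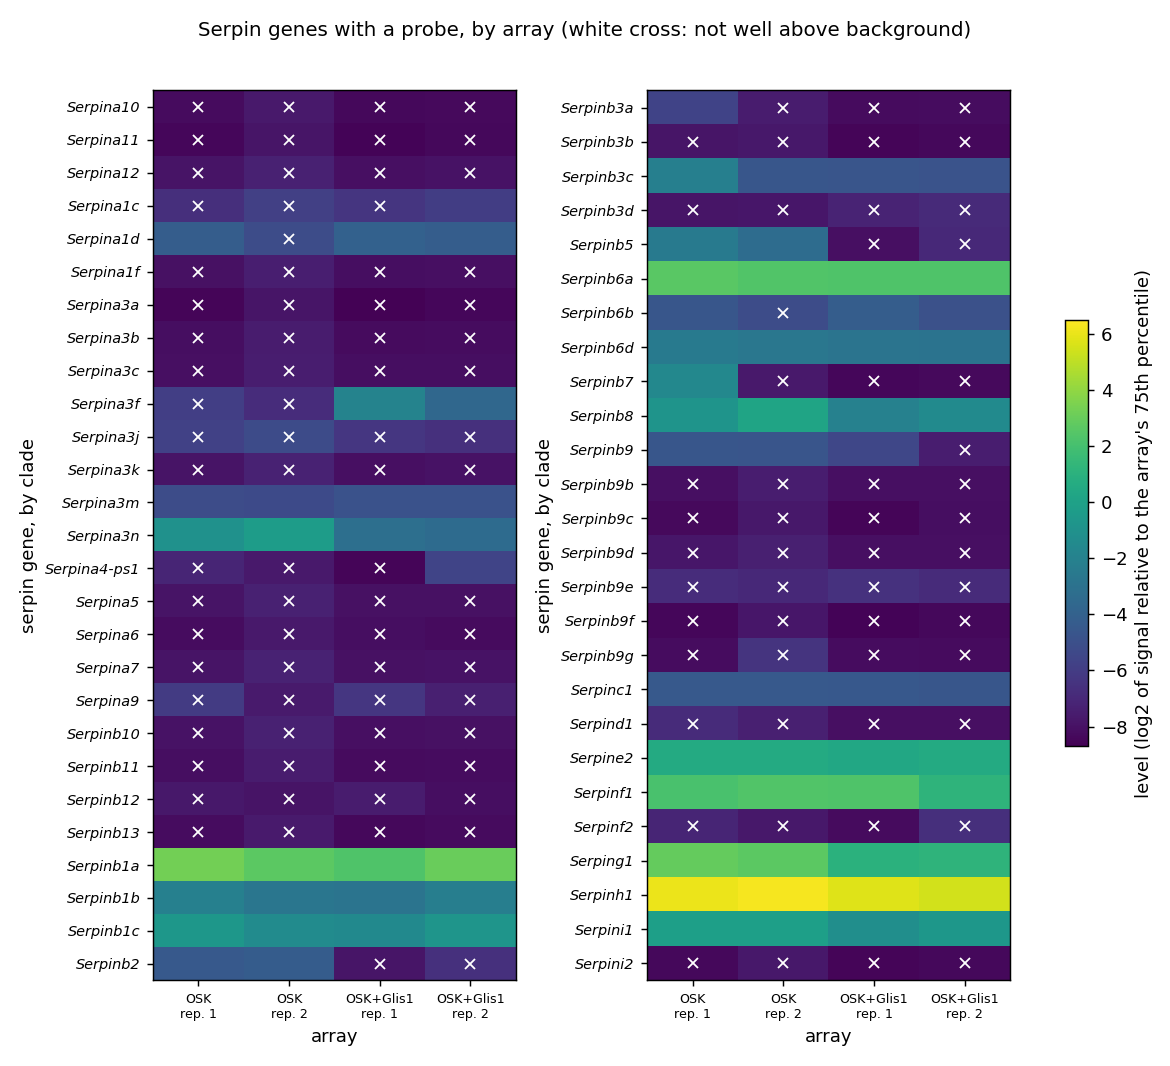
Heat map of the 53 serpin genes with a probe (rows, by clade) on the 4 arrays (columns), coloured by level in log2 relative to the array's 75th percentile. White crosses mark arrays where the probe was not well above background, and 28 of the 53 genes carry a cross on every array.

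The 32 genes with a probe that were not tested comprise those 28, with levels from -8.63 to -5.26, and 4 that were well above background on 1 array each (Serpina1c, Serpina4-ps1, Serpinb3a and Serpinb7). RefSeq genes without a probe numbered 15, namely Serpina1a, Serpina1b, Serpina1e, Serpina3g, Serpina3h, Serpina3i, Serpina16, Serpinb6c, Serpinb6e, Serpinb9h, Serpine3 and the pseudogenes Serpina3d-ps, Serpina3e-ps, Serpina3l-ps and Serpinb1-ps1, so the family is described here without them. Of the 14 serpin genes with more than 1 probe, 6 had at least 2 probes tested, and in all 6 the probes had differences of the same sign.

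**Figure D2:**
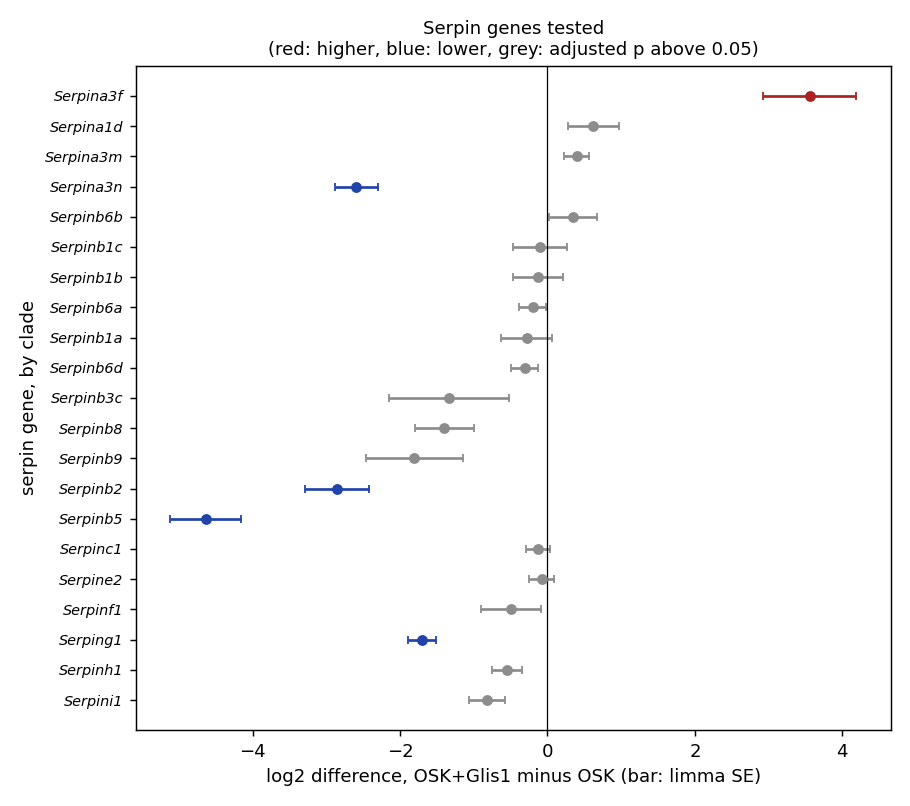
log2 difference, OSK+Glis1 minus OSK, of each of the 21 serpin genes tested, with bars for the standard error of the limma fit and genes ordered by clade. The red point passed as higher (Serpina3f), blue points passed as lower (Serpinb5, Serpinb2, Serpina3n and Serping1), and the 16 grey points did not pass.

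The Serpina3 genes are mouse relatives of antichymotrypsin, a secreted inhibitor of chymotrypsin-like proteases that belongs to the acute phase response. They number 14 in RefSeq, 8 of which had a probe and 3 of which were tested, and the called pair went in opposite directions. The sequences of the 250 bases before the RefSeq start of Serpina3n, Serpina3f and their paralog Serpina3g follow, because the first pair changed in opposite directions. Serpina3f has 2 starts listed, and its window was taken from the first. Serpina3g had no probe. Capitals mark matches to TTCNNNGAA, the palindrome bound by STAT factors, and to TATAAA on either strand. The build is GRCm38.p6 and all 3 genes are on the plus strand.
Serpina3n, chr12:104406458-104406707: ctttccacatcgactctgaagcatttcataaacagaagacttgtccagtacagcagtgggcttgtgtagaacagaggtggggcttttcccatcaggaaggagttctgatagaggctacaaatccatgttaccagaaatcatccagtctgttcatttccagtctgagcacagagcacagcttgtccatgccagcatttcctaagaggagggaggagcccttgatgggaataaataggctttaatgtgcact
Serpina3f, chr12:104214294-104214543: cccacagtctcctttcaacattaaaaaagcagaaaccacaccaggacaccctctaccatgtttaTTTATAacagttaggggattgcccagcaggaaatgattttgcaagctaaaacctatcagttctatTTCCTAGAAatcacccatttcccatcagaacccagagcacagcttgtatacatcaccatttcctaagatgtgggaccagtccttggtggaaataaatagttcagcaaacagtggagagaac
Serpina3g, chr12:104235897-104236146: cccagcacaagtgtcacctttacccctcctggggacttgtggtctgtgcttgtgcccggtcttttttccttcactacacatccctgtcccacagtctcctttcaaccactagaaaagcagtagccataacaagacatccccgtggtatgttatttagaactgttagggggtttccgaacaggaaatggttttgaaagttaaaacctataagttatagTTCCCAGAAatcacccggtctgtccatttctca
Serpina3f and Serpina3g were identical at 82.9% of 152 aligned bases, and Serpina3f and Serpina3n at 70.1% of 231. The latter was the lowest identity among the 38 serpin pairs with 150 aligned bases or more and 70% identity or more. The closest promoter to that of Serpina3n was that of Serpina3c, at 92.7% of 247, and Serpina3c was dim on all arrays. Serpina3f holds TTCCTAGAA 121 bases before its start and Serpina3g holds TTCCCAGAA 33 bases before its own, while these letters are not in the Serpina3n window. TTCNNNGAA was present in 7.02% of all 32851 RefSeq promoter windows of that length and in 10 of the 63 serpin windows (15.9%). A match is a description of the letters and not a shown binding site, and the motifs were chosen with these sequences in view.

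Serpina3n, a mouse antichymotrypsin known to inhibit granzyme B and leukocyte elastase, read -1.02 and -0.30 on the OSK arrays and -3.15 and -3.36 on the OSK+Glis1 arrays. Both OSK arrays were higher than both OSK+Glis1 arrays by over 2 log2 units. Its level fell from -0.66 ± 0.51 (SD, n = 2) to -3.25 ± 0.15 (SD, n = 2), a 6.04-fold decrease (log2 difference -2.59 ± 0.29 SE, limma adjusted p = 0.00786). Serpina3f, a paralog that lies in the same cluster, did the reverse. It read -5.89 and -6.75 in OSK, where neither array was well above background, and -1.92 and -3.61 in OSK+Glis1. It was at least 7.79-fold higher in OSK+Glis1, with measured means of -6.32 ± 0.60 and -2.76 ± 1.20 (SD, n = 2 each, limma adjusted p = 0.0272). "At least" here sets the mean of the bright group against a stand-in for each dim array. That is the array's lowest signal well above background, or the gene's own level where that is higher. It is not a strict limit of detection, since Serpina1d read -5.17 on the second OSK array and failed the background test. The lowest signal well above background on that array was -5.56. A second Serpina3f probe read -7.76 and -7.52 in OSK and -1.56 and -3.10 in OSK+Glis1, the same order of groups. The call on the first probe was lost without the first OSK array (adjusted p = 0.0948) and without the second (0.145). The bound leans on the first OSK+Glis1 array, since without it the gene was at least 4.33-fold higher, and without the second at least 14.0-fold. Serpina3m read -5.18 and -5.31 in OSK and -4.85 on both OSK+Glis1 arrays, a log2 difference of 0.39 ± 0.17 (SE) that missed the threshold (limma adjusted p = 0.201). Probe sequences were not analysed here, so signal from near-identical Serpina3 paralogs cannot be told apart from that of the named gene.

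The other clade A genes gave little signal. Serpina1d, a mouse antitrypsin, read -4.24 and -5.17 in OSK and -3.97 and -4.20 in OSK+Glis1, a log2 difference of 0.62 ± 0.35 (SE, limma adjusted p = 0.321). Its sister Serpina1c was above background on the second OSK+Glis1 array alone, as was the pseudogene Serpina4-ps1. The remaining 13 clade A genes with a probe were not well above background on any array. Among them are Serpina6, the corticosteroid carrier of plasma, Serpina7, the thyroxine carrier, Serpina5, the protein C inhibitor, Serpina10, the protein Z-dependent inhibitor, and Serpina12, known as vaspin. Clade A as a whole had 29 RefSeq genes, 19 with a probe and 4 tested, of which 1 rose and 1 fell. Of all genes tested, 6.05% rose and 8.17% fell.

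**Figure D3:**
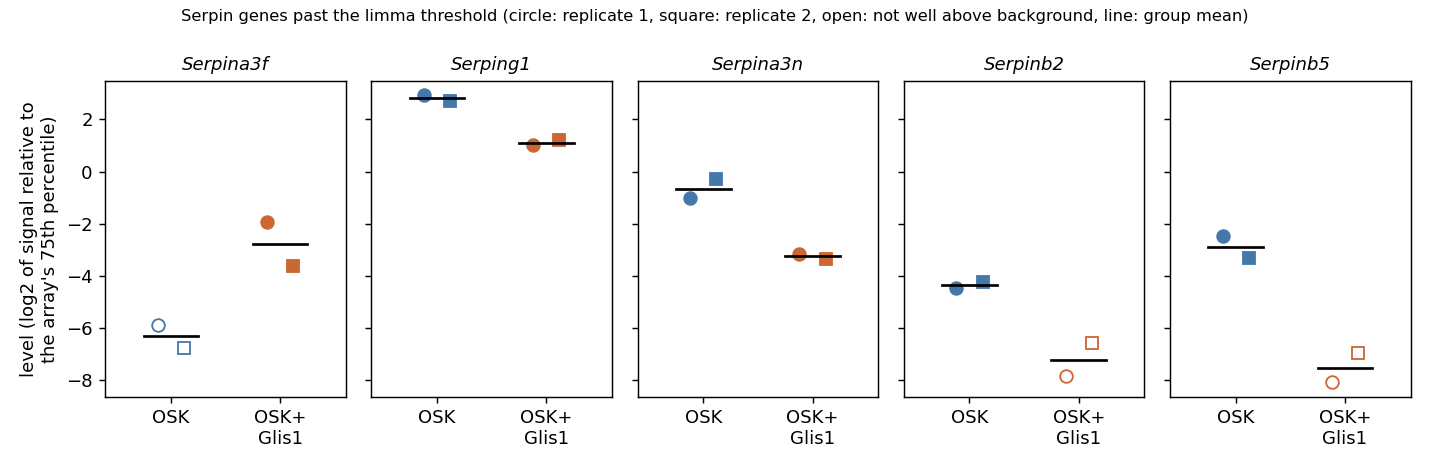
Level of each of the 5 serpin genes that passed the test, on each of the 4 arrays (log2 relative to the array's 75th percentile), with circles for replicate 1, squares for replicate 2, open symbols where the probe was not well above background and a line at the group mean. No OSK point overlaps an OSK+Glis1 point for these genes, and the OSK+Glis1 points are the lower ones in 4 of the 5.

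Clade B holds the intracellular serpins, and it had 29 RefSeq genes, 25 with a probe and 11 tested. None rose, 2 fell and 9 did not pass, beside 8.17% of all genes that fell, and both that fell passed the background filter only through OSK. Its members sit in 2 clusters, 12 genes in a row on chromosome 1 and 17 genes on chromosome 13, of which 16 are in a row. On chromosome 1 the 4 genes tested (Serpinb2, Serpinb3c, Serpinb5 and Serpinb8) all had lower means with Glis1, and 2 of the 4 passed. Serpinb2 and Serpinb5 have only a bound on their change, given below, and Serpinb8 and Serpinb3c had log2 differences of -1.40 and -1.34, the latter -0.11 without the first OSK array. On chromosome 13 the 7 genes tested had a median of -0.20 and a range from -1.81 to 0.35, and none passed, with Serpinb9 alone at an unadjusted p under 0.05. The difference between the clusters was not tested.

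The promoters of the chromosome 1 genes are shown because 3 of them share letters that fit the AP-1 site, TGANTCA. Capitals mark that motif, TATAAA and the GC box GGGCGG, all 3 genes are on the plus strand, and the build is GRCm38.p6.
Serpinb5, chr1:106860925-106861174: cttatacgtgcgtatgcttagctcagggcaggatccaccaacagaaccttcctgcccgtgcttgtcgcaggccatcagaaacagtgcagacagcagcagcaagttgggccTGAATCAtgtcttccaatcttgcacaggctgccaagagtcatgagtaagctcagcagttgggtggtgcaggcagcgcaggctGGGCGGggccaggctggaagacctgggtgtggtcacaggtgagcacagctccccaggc
Serpinb2, chr1:107511173-107511422: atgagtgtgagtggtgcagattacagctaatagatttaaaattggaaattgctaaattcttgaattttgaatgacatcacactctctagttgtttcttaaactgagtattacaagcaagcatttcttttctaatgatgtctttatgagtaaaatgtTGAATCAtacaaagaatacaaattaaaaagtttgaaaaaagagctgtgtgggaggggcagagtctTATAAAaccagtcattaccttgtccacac
Serpinb8, chr1:107589756-107590005: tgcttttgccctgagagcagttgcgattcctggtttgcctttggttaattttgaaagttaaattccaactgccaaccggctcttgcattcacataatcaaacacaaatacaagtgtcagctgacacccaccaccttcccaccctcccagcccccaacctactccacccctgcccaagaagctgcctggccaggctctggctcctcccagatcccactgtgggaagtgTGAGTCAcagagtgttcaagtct
Serpinb5 holds TGAATCA 140 bases before its start and GGGCGG at 58. Serpinb2 holds TGAATCA at 94 and TATAAA at 29, and Serpinb8 holds TGAGTCA at 23. TGANTCA was present in 6.75% of all promoter windows and in 12 of 63 serpin windows (19%), TATAAA in 12.4% and 17 of 63 (27%), and GGGCGG in 32.7% and 7 of 63 (11.1%). A further motif searched, TGGGGGGT, which resembles the site described for Gli-like zinc fingers, was in 1.36% of all windows and in 1 serpin window, and in none of the 6 printed here. Each was searched on both strands. Serpinb2 has 2 starts listed, and its window was taken from the first.

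Serpinb5, known as maspin, is an epithelial serpin that does not inhibit proteases in the usual way and is studied as a tumour suppressor of breast and prostate. It read -2.46 and -3.32 in OSK and -8.08 and -6.97 in OSK+Glis1, where both arrays failed the background test. Serpinb5 was at least 10.3-fold lower in OSK+Glis1, with measured means of -2.89 ± 0.61 and -7.52 ± 0.79 (SD, n = 2 each, limma adjusted p = 0.00659). The groups lie far apart, and without the first OSK array the adjusted p was 0.0508 and the bound 7.65-fold. Serpinb2 encodes plasminogen activator inhibitor type 2, which in many cells stays inside. It read -4.46 and -4.25 in OSK and -7.82 and -6.59 in OSK+Glis1, where again neither array was well above background. By its first probe Serpinb2 was at least 3.73-fold lower, with measured means of -4.35 ± 0.15 and -7.21 ± 0.87 (SD, n = 2 each, limma adjusted p = 0.0173). Its second probe read -4.72 and -4.78 in OSK and -8.19 and -7.83 in OSK+Glis1, in the same direction. By that probe the gene was at least 2.83-fold lower (limma adjusted p = 0.00259 with every probe tested on its own). The adjusted p of the first probe was 0.0947 without the first OSK array and 0.114 without the second.

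Serpinb8, an inhibitor of furin-like proteases, read -0.82 and 0.17 in OSK and -2.03 and -1.42 in OSK+Glis1. Its groups do not overlap, and the 2.64-fold lower mean missed the threshold (log2 difference -1.40 ± 0.40 SE, limma adjusted p = 0.0941). A second Serpinb8 probe, dimmer but steadier, read -2.33 and -2.32 in OSK and -3.47 and -3.80 in OSK+Glis1. Tested on its own, that second probe passed (log2 difference -1.31 ± 0.19 SE, limma adjusted p = 0.0163). With the mean of both probes the gene passed too (limma adjusted p = 0.0240). It also passed with the replicate number as a block (0.0201), although the numbers were not taken as pairs. With the second probe's own test left aside, Serpinb8 missed the threshold in 11 of the 14 alternatives. Its difference ran from -1.89 without the first OSK array to -0.91 without the second. Serpinb3c, of the squamous cell carcinoma antigen group that inhibits cathepsins, read -2.15 and -4.62 in OSK and -4.66 and -4.78 in OSK+Glis1. Its difference of -1.34 ± 0.81 (SE, limma adjusted p = 0.357) comes mainly from the first OSK array, and without the second OSK array it was -2.57 (adjusted p = 0.0259). A second Serpinb3c probe read -2.31 and -7.30 in OSK and -8.09 and -6.37 in OSK+Glis1. It was well above background on the first OSK array alone and was not tested. Serpinb3a and Serpinb7 were also well above background on that same first OSK array and on no other. Serpinb7 read -1.61 there against -7.68, -8.42 and -8.33 on the rest. In the whole series 776 genes were above background on the first OSK array alone, against 201 to 401 on each of the other 3, and the part of this in the Serpinb3 and Serpinb7 values was not tested. The other 6 genes of the cluster (Serpinb3b, Serpinb3d, Serpinb10, Serpinb11, Serpinb12 and Serpinb13) were dim on all arrays.

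**Figure D4:**
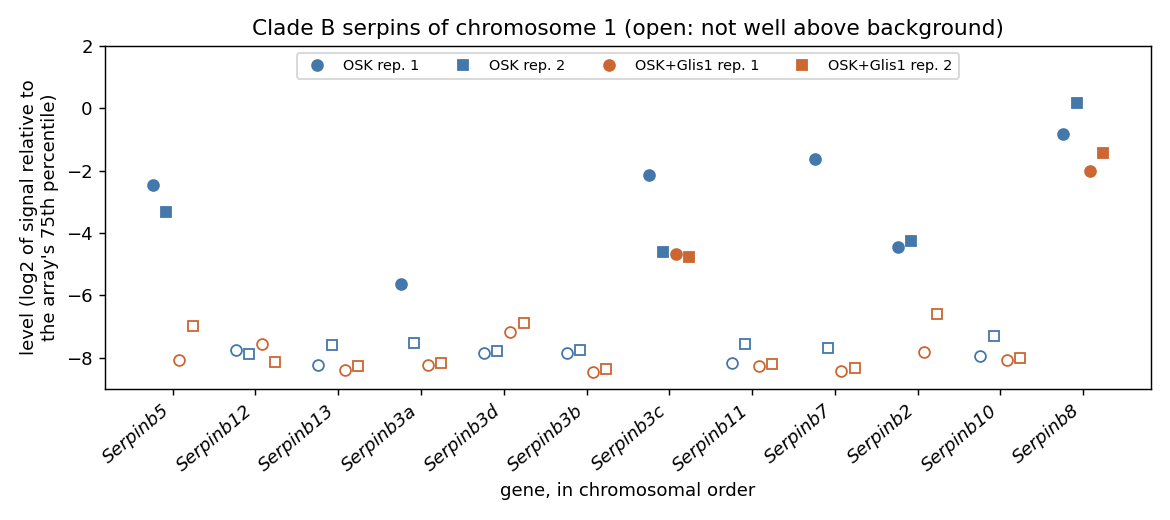
Levels of the 12 clade B genes of chromosome 1 on the 4 arrays, in gene order along the chromosome and not to scale in distance, with levels in log2 relative to the array's 75th percentile. Open symbols are arrays where the probe was not well above background, and the OSK points of Serpinb5, Serpinb2 and Serpinb8 stand above their OSK+Glis1 points.

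On chromosome 13, the Serpinb1 genes are paralogs of the inhibitor of neutrophil elastase, cathepsin G and proteinase 3. Serpinb1a read 3.24 and 2.65 in OSK and 2.30 and 3.02 in OSK+Glis1, Serpinb1b -2.08 and -2.74 against -2.88 and -2.19, and Serpinb1c -0.67 and -1.39 against -1.49 and -0.77. In all 3 the groups overlap, and the differences of -0.28 ± 0.34, -0.13 ± 0.35 and -0.10 ± 0.37 (SE) had limma adjusted p-values of 0.645, 0.848 and 0.890. By these probes the genes were not flat. Each was above its own mean on the first OSK and second OSK+Glis1 arrays and below it on the other 2. A second Serpinb1b probe did not follow that order. It read -4.51 and -7.21 in OSK and -5.55 and -7.89 in OSK+Glis1, well above background on the first array of each group alone. A second Serpinb1c probe, at -4.02 and -5.13 against -4.77 and -4.50, did follow it. Serpinb1a deviated by 0.44, -0.16, -0.50 and 0.22 on OSK 1, OSK 2, OSK+Glis1 1 and OSK+Glis1 2, and the 3 genes stayed within 0.05 to 0.16 of one another on every array. Of all genes tested, 6.89% had this order of signs, and of the 21 serpins tested only these 3 had it. Cross-hybridization between the Serpinb1 probes was not tested.

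**Figure D5:**
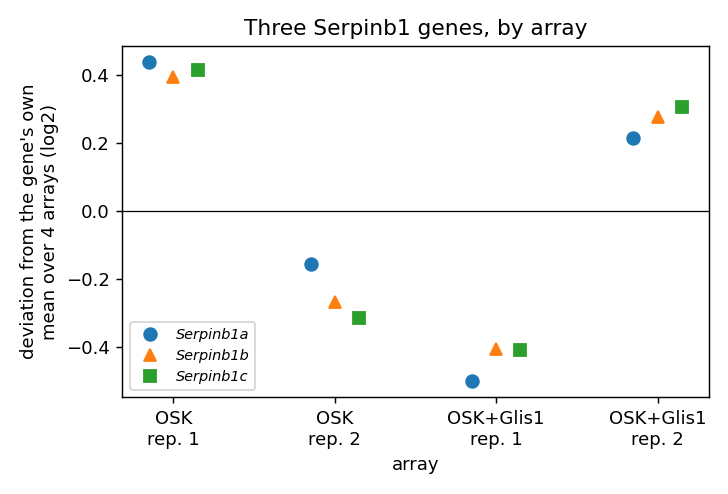
Deviation of Serpinb1a, Serpinb1b and Serpinb1c from each gene's own mean over the 4 arrays, in log2 units, by array. Each gene was read by its probe of highest mean. The 3 genes lie together on each array, above 0 on OSK 1 and OSK+Glis1 2 and below 0 on OSK 2 and OSK+Glis1 1.

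The Serpinb6 genes are close paralogs of a broad inhibitor of trypsin-like proteases and cathepsin G. Serpinb6a read 2.63 and 2.37 in OSK and 2.29 and 2.31 in OSK+Glis1, a difference of -0.20 ± 0.18 (SE, limma adjusted p = 0.537). Serpinb6b differed by 0.35 ± 0.33 and Serpinb6d by -0.31 ± 0.18 (SE), with adjusted p-values of 0.548 and 0.344. Serpinb9, the granzyme B inhibitor by which cytotoxic lymphocytes and their neighbours protect themselves, read -4.65 and -4.69 in OSK and -5.49 and -7.47 in OSK+Glis1. Its groups do not overlap, and the 3.50-fold lower mean missed the threshold (log2 difference -1.81 ± 0.66 SE, limma adjusted p = 0.154), with the second OSK+Glis1 array far below the first. On that second array the probe was not well above background. Without the first OSK+Glis1 array the difference was -2.80, and without the second it was -0.82. A second Serpinb9 probe read -5.56 and -5.26 in OSK and -5.88 and -6.26 in OSK+Glis1. Its difference was -0.66 ± 0.22 (SE, limma adjusted p = 0.137 with every probe tested on its own). The 6 other Serpinb9 genes with a probe, Serpinb9b to Serpinb9g, were dim on all arrays. Some of these paralogs are nearly identical before their starts, with 99.1% identity over 235 aligned bases between Serpinb9e and Serpinb9f and 95.4% over 240 between Serpinb3b and Serpinb3c.

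Among the serpins of the coagulation and complement systems described here, Serping1 fell. Serping1, the C1 inhibitor that blocks C1r, C1s, plasma kallikrein and factor XIIa, read 2.92 and 2.69 in OSK and 1.00 and 1.21 in OSK+Glis1. It fell 3.25-fold, from 2.81 ± 0.16 to 1.11 ± 0.15 (SD, n = 2 each, log2 difference -1.70 ± 0.19 SE, limma adjusted p = 0.00781), and it passed without any one of the 4 arrays.

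Serpine2, protease nexin 1, an inhibitor of thrombin and urokinase at the cell surface, read 0.58 and 0.57 in OSK and 0.42 and 0.58 in OSK+Glis1. Its groups overlap, and the difference of -0.077 ± 0.17 (SE, limma adjusted p = 0.812) turned to 0.065 when each array was centred on its median. Serpinc1, antithrombin, read -4.43 and -4.48 in OSK and -4.53 and -4.63 in OSK+Glis1, a difference of -0.13 ± 0.16 (SE, limma adjusted p = 0.672). A second Serpinc1 probe read -6.56 and -4.45 in OSK and -7.52 and -6.42 in OSK+Glis1. It was well above background on the second OSK array alone and was not tested. Serpind1, heparin cofactor II, and Serpinf2, antiplasmin, were dim on all arrays. Serpinf1, pigment epithelium-derived factor, which restrains vessel growth without inhibiting proteases, read 2.11 and 2.36 in OSK and 2.31 and 1.17 in OSK+Glis1. Its groups overlap, with the second OSK+Glis1 array low, and the difference was -0.50 ± 0.41 (SE, limma adjusted p = 0.492).

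Serpinh1, also called Hsp47, chaperones procollagen in the endoplasmic reticulum. It read 6.06 and 6.27 in OSK and 5.78 and 5.45 in OSK+Glis1, so the groups do not overlap. The 1.46-fold lower mean missed the threshold (log2 difference -0.55 ± 0.20 SE, limma adjusted p = 0.160). Serpini1, neuroserpin, an inhibitor of tissue plasminogen activator in brain, read -0.09 on both OSK arrays and -1.21 and -0.63 in OSK+Glis1. This 1.77-fold lower mean also missed the threshold (log2 difference -0.83 ± 0.24 SE, limma adjusted p = 0.0989). The other clade I gene, Serpini2, was dim on all arrays. Over the 21 serpins, the groups did not overlap for 15 (3 higher and 12 lower in OSK+Glis1), beside 59.9% of all genes tested, of which 33.4% were higher and 26.6% lower.

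The targets and partners of these serpins were followed in 5 lists holding 116 genes, of which 113 had a probe and 82 were tested. Of the 82, 5 rose and 11 fell, beside the 6.05% and 8.17% of all genes, with a median log2 difference of -0.11. Most of these calls were lost when either OSK array was left out. In the plasminogen activation list none of 9 tested passed (median -0.061). Plaur, the urokinase receptor, read 1.32 and 1.83 in OSK and 2.52 and 2.17 in OSK+Glis1, which is 0.77 ± 0.25 (SE) higher in log2 and missed the threshold (limma adjusted p = 0.126), and Plat, tissue plasminogen activator, differed by 0.72 ± 0.42 (adjusted p = 0.334). Urokinase itself (Plau) and vitronectin (Vtn) were dim on all arrays. The plasminogen receptor subunits Anxa2 and S100a10 differed by -0.76 and -0.51 (adjusted p = 0.0808 and 0.121). In the coagulation, contact and complement list of 16 genes tested, prothrombin (F2) alone passed, 3.67-fold lower in OSK+Glis1 at a limma adjusted p of 0.0342 (-1.88 ± 0.36 SE in log2), and the median was -0.17. That call was lost when either OSK array or the first OSK+Glis1 array was left out. The thrombin receptor F2r differed by 0.86 and the protein C receptor Procr by 0.75 (adjusted p = 0.0875 and 0.104).

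In the list of intracellular and granule proteases, 2 of 17 tested rose, 3 fell and the median was -0.065, with 14.2% of all genes called in either direction. Cathepsin H (Ctsh) rose 16.7-fold (4.06 ± 0.22 SE in log2, limma adjusted p = 0.00231) and the pancreatic-type elastase Cela1 rose 12.8-fold (3.68 ± 0.28). The mast cell chymase Mcpt4 was at least 8.12-fold lower, with measured means of -3.23 in OSK and -6.96 in OSK+Glis1, and the collagen-degrading cathepsin K (Ctsk) fell 3.63-fold. Of the 3 that fell, the Ctsc call was lost whichever array was left out, and the Mcpt4 and Ctsk calls when either OSK array was. Ctsh and Cela1 passed without any one of the 4 arrays. In the list on collagen folding and secretion, where Serpinh1 acts, none of 21 tested rose, 3 fell and the median was -0.068, so the share called was near the 14.2% of all genes. The procollagen N-proteinase Adamts2 fell 5.49-fold, the C-proteinase Bmp1 2.07-fold and the prolyl isomerase Fkbp14 2.01-fold. The Bmp1 and Fkbp14 calls were lost whichever array was left out, and the Adamts2 call when either OSK array was. The prolyl hydroxylase subunit P4ha2 differed by 0.68 (adjusted p = 0.0658). Of the 19 protease inhibitors tested from outside the family, 3 rose and 4 fell, with a median of -0.22, again beside 14.2% of all genes. The metalloprotease inhibitor Timp4 rose 27.1-fold (4.76 ± 0.23 SE in log2, limma adjusted p = 0.00225), the cystatin Cst6 fell 6.84-fold, Itih5 fell 4.68-fold, and A2m, the broad protease trap, was at least 2.09-fold higher, with measured means of -7.22 in OSK and -4.82 in OSK+Glis1. Timp4, Cst6 and Itih5 passed without any one of the 4 arrays, and A2m missed when either OSK array was left out.

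Markers of other cell types moved beside some of these serpins. In bulk RNA, fewer cells of a type and less RNA per cell cannot be told apart. The calls in every list below stand beside 6.05% of all genes tested that were higher and 8.17% that were lower. Of the 10 fibroblast markers, 3 passed and all were lower (Thy1, Fap and Col1a1), beside 8.17% of all genes, and Thy1 alone passed when either OSK array was left out. The list's summed linear level ran 454 and 413 in OSK and 384 and 348 in OSK+Glis1, in units of the array's 75th percentile. Beside Serpinb5, Serpinb2 and the Serpinb3 genes, which squamous epithelium expresses, 6 of 9 squamous keratinocyte markers were tested, and Krt14 and Trp63 fell while Krt6a rose. Krt14 passed without any one of the 4 arrays, the Krt6a call was lost in 3 of those 4 fits, and the Trp63 call was lost in all but the fit without the second OSK array. The list's summed level was 27.2 and 23.5 in OSK and 16.4 and 18.5 in OSK+Glis1, with Ivl and Dsg3 dim on all arrays. Beside the liver-type clade A serpins, 4 of 8 hepatocyte and yolk sac markers were tested, with fibrinogen (Fgb) at least 15.3-fold higher and Afp, Apoa1 and Ttr dim on all arrays, and the Fgb call was lost without the first OSK array. That list summed to 7.77 and 6.45 in OSK and to 1.07 and 2.41 in OSK+Glis1, most of it from Ahsg in OSK, which missed the threshold (limma adjusted p = 0.0688). Beside Serpinb9 and the Serpinb1 genes, the leukocyte markers summed to 0.239 and 0.160 in OSK and 0.140 and 0.180 in OSK+Glis1, and only Laptm5 was tested. Ptprc, the pan-leukocyte marker, was above background on the first OSK array alone. The trophoblast list summed to 0.391 on the first OSK array and to 0.0514 to 0.0642 on the other 3, where Gcm1 and Cdx2 were dim. Of 4 endothelial markers tested, Kdr rose and Cldn5 fell, the Kdr call was lost without the first OSK or the second OSK+Glis1 array, Pecam1 was dim on all arrays, and the list summed to 2.03 and 1.37 in OSK and 1.01 and 1.38 in OSK+Glis1. The part of these cell types in the serpin differences was not tested.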

How the data were processed

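Total RNA from 4 samples was hybridised to single-colour Agilent arrays that all lie on 1 slide. The authors deposited scanner tables whose processed intensity is background-subtracted and detrended within each array, per the file headers (Agilent Feature Extraction 10.7.3.1). They also deposited a log2 value table, whose columns equal log2 processed intensity centred on each array's median, within 0.01 for 99.8% of probes. Spot flags were used as deposited, per the file headers.

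Levels are log2 processed intensity minus the array's 75th percentile. Control and outlier spots were left out, which removed 71 probes and kept 41103, of which 26901 matched a RefSeq symbol by accession. A probe entered the test when the 2 arrays of either group were well above background, and a gene was read by its probe of highest mean. OSK+Glis1 and OSK were compared with limma 3.58.1 in R 4.3.3 (lmFit, eBayes, two-sided), with Benjamini-Hochberg adjustment over 19171 genes and a threshold of 0.05, and the code was tested on simulated data. Promoter windows come from RefSeq (GRCm38.p6), where 54 serpin genes had one, 18 of them tested.

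One serpin gene is not reported here and is left out of the family's counts and figures. The members, 5 partner lists, 6 marker lists and motifs were chosen with earlier results of these data known. Genes named are all that passed, the 5 largest differences and 5 highest levels among the serpins that did not, and the leading members of each list; Serpinb1b, Serpinb1c, the Serpinb6 paralogs, Serpina3m and Serpinc1 were named after their values were seen, as were Plat, Plau, Vtn and the pluripotency genes. Alternatives covered background correction, scaling, the deposited values, filters, probe summary, a replicate block and leaving out each array. Same-numbered samples did not deviate together (correlation 0.00938), so the numbers were not taken as pairs.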

Additional observations from a re-analysis of the deposited data

How the results depend on the processing

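With normexp on the raw spot and local background signals, 0 genes passed in all, with 0 serpins higher, 0 lower and 0 partner genes; with the local backgrounds that the scanner marked as outliers replaced by the array median, 7 serpins passed, including all 5 reported, at smaller differences for those dim in 1 group (Serpina3f 1.70, Serpinb5 -1.47 and Serpinb2 -0.73), below the bounds given for them. That correction adds an offset of 50 to each signal. With no filter on dim probes 1504 genes passed, 0 serpins were higher and 10 partner genes passed, and among genes well above background on all 4 arrays 0 serpins were higher and 2 lower, where fewer genes were tested. Leaving out each array in turn gave 1219 to 1879 genes, 0 to 1 serpins higher, 2 to 5 serpins lower and 7 to 13 partner genes, from fits in which the lone array of a group is assumed to vary like the other group. Serpina3n and Serping1 passed under every alternative except normexp (adjusted p = 0.391 and 0.582). Signs turned only in serpins that did not pass. The turns given here cover those named for the 5 largest differences and 5 highest levels, and other serpins turned too. With normexp Serpina1d was -1.11, Serpinb6a 0.16 and Serpinb1a 0.071. Serpine2 was 0.030 with normexp, 0.076 in the deposited values and 0.065 under median centring. In each of the latter settings 8 of 21 serpin differences were positive, against 4 in the main fit. With single arrays left out, Serpinb1a ran from -0.64 to 0.074, turning without the first OSK array (0.014) and the first OSK+Glis1 array, Serpinf1 from -1.07 to 0.071, turning without the second OSK+Glis1 array, and Serpine2 from -0.16 to 0.0063, turning without the first. The cause was not tested. The fit with the replicate number as a block gave 2654 genes and 6 serpins, adding Serpinb8 to the 5 and changing no other serpin call. A slide block could not be fitted because all arrays share 1 slide. Serpins dim in 1 group have only a bound on their change.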
